A study of Mus musculus with 9 samples.

Results

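The expression of Ccr7, S1pr1, Il7r, Cd44, Klf2 and Klf3 was followed in mouse cytotoxic T lymphocytes (CTL) treated with inhibitors of the kinase mTOR. These genes encode receptors for homing, tissue exit, survival and adhesion, and transcription factors that control such receptors. Every probe set that the array annotation assigned to one of these symbols was taken, which gave 16 probe sets of the 45101 on the array. They stand for 6 of the 18193 genes that had a probe set with a single symbol. The CTL came from spleens of P14 mice, which carry a transgenic T cell receptor for the viral peptide gp33-41 and whose genotype was labelled wild type. Spleen cells were activated with this peptide, interleukin 2 and interleukin 12 for 48 h and then grown with the cytokines for 96 h, which made 6 days in all. The last 48 h were spent in DMSO (the solvent control), in 20 nM rapamycin or in 1 uM KU-0063794. By the series design, control and treated cells came from the same spleens, and each replicate number is read here as 1 of 3 spleens. Total RNA of each bulk culture was measured on 1 Affymetrix expression array, 9 arrays in all. The mice's ages are not given in the sources used here. All groups share the receptor transgene, the peptide and the cytokines, so the cells were activated through a single receptor specificity in culture.

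Naive T cells enter lymph nodes through CCR7, which binds chemokines of the node, and leave through S1PR1, which senses sphingosine-1-phosphate in blood and lymph. The transcription factor KLF2 drives S1pr1, and FOXO1 drives Klf2 and Il7r; signalling through PI3K, AKT and mTOR holds FOXO1 out of the nucleus. Effector CTL typically lose this program and carry high CD44, a hyaluronan receptor that marks antigen-experienced cells. Rapamycin with FKBP12 blocks mainly mTOR complex 1, whereas KU-0063794 occupies the kinase's active site and blocks both mTOR complexes.

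Values are log2 signals, so a difference of 1 is a doubling of signal. A probe set was called above background when its signal exceeded 1.38, the 95th percentile of the mean signals of 29 genes restricted to other tissues. Of the 34945 probe sets with a single symbol, an array had 35.1% to 35.7% above this level. The median signal of an array over all 45101 probe sets was 0.47 to 0.53. Of the 16 probe sets, 8 were above background on all 9 arrays and 12 passed the filter on low signal. All 6 genes passed that filter through their probe set of highest mean signal. Of the CD8 T cell markers 11 of 11 lay above background, as did 1 of 7 for B cells (Cd79b), 1 of 11 for myeloid cells (Csf1r), 0 of 4 for erythroid cells and 1 of 10 for endothelial and stromal cells (Pecam1). For CD4 T cells 2 of 5 markers lay above background (Zbtb7b and Ctla4), and for NK cells 2 of 4 (Gzma and Eomes). Cd4, Foxp3 and Cd40lg were below background in every group, and so were the NK cell genes Ncr1 and Klra8. Differences were tested with limma over all tested genes, without a spleen term and again with the spleen as a block. The block rests on reading arrays of one replicate number as cells of one spleen. A gene passed at a Benjamini-Hochberg adjusted p under 0.05.

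Against DMSO, rapamycin cultures had more Ccr7 signal, and KU-0063794 cultures had less Cd44 signal, in all 3 spleens. Both differences passed the test with the spleen block and failed it without the block. Without the block, 0 of the 6 genes passed in either comparison with DMSO, where 4.44% of 13278 tested genes passed for rapamycin and 4.07% for KU-0063794. With the block, 1 of 6 passed for rapamycin (Ccr7, higher), against 11.8% of all tested genes in either direction and 6.24% higher. For KU-0063794, 1 of 6 also passed with the block (Cd44, lower), against 12.4% of all tested genes and 5.86% lower. One gene in 6 is close to these background shares. S1pr1, Il7r, Klf2 and Klf3 passed in neither fit. Both comparisons use the same 3 DMSO arrays, so they are not independent of each other.

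**Figure D1:**
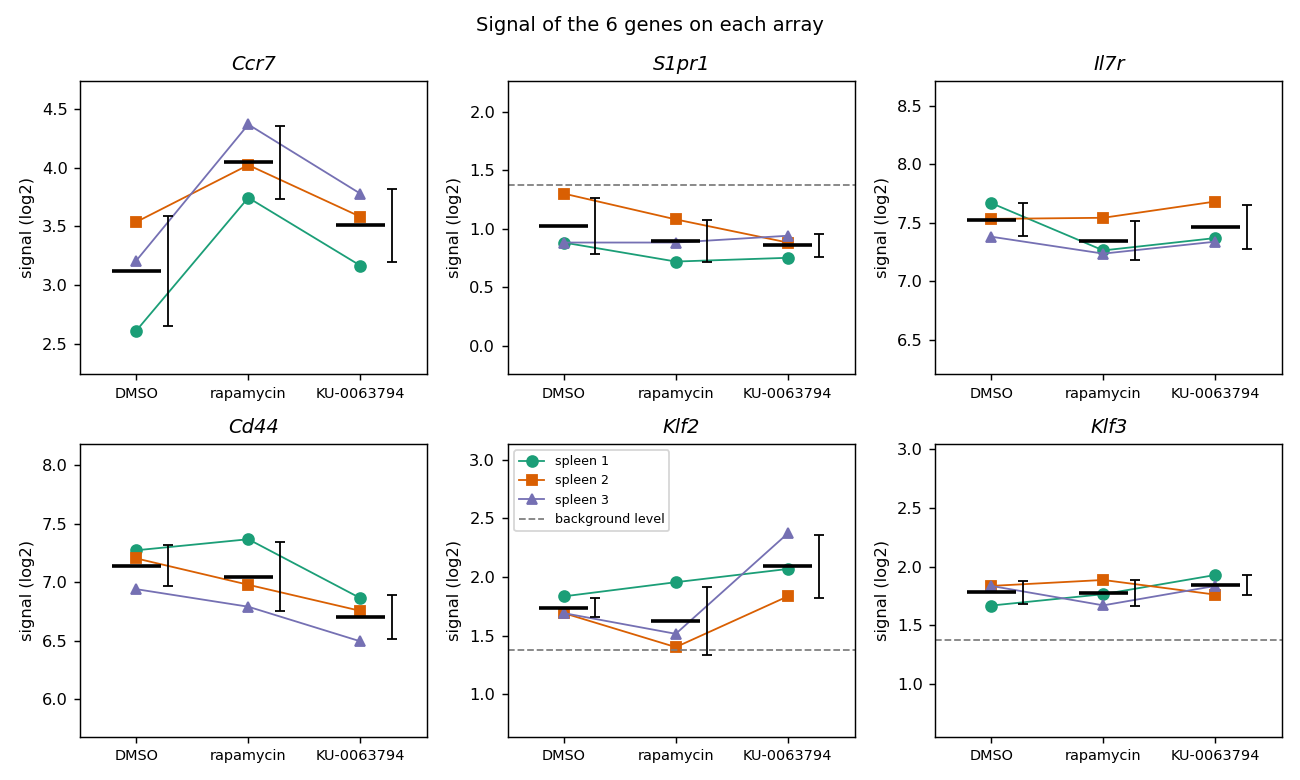
Signal (log2, vertical axis) of the probe set of highest mean for each of the 6 genes on the 9 arrays, by treatment. Points joined by a line share a replicate number, read as the same spleen. Black bars are means, error bars are SD (n = 3), and the dashed line is the background level of 1.38. Each panel spans the same range of log2 units. Ccr7 is highest with rapamycin in every spleen, and Cd44 is lowest with KU-0063794 in every spleen.

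Ccr7, the receptor for the lymph node chemokines CCL19 and CCL21, had 1 probe set (1423466_at), which was above background on all 9 arrays. In spleens 1, 2 and 3 its log2 signal was 2.61, 3.54 and 3.21 with DMSO, 3.74, 4.02 and 4.37 with rapamycin, and 3.16, 3.58 and 3.78 with KU-0063794. Every rapamycin array was above every DMSO array, whereas the KU-0063794 arrays overlapped both other groups. The order of the means was DMSO (3.12 ± 0.47, SD, n = 3), KU-0063794 (3.51 ± 0.31) and rapamycin (4.04 ± 0.31), and neighbours in that order overlapped in their arrays.

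With rapamycin, the log2 difference of Ccr7 from DMSO was 0.93 (SE 0.25, 95% interval 0.36 to 1.49), which is 1.90-fold. The spleens gave 1.13, 0.49 and 1.16, so spleen 2, which started highest with DMSO, showed the smallest difference. The adjusted p from limma was 0.0776 without the block, and 0.00585 with it (SE 0.13, interval 0.62 to 1.24). With the block, Ccr7 passed under all 9 settings that kept every array and under each omission of 1 array, with adjusted p up to 0.0405. It failed with spleen 1 or spleen 3 left out, at adjusted p up to 0.104, where 2 spleens remained. Without the block, leaving out DMSO replicate 2 brought Ccr7 past the threshold (log2 difference 1.14, adjusted p = 0.0484). In bulk RNA of this kind, fewer cells with a transcript and less transcript per cell cannot be told apart.

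For KU-0063794 the log2 difference of Ccr7 from DMSO was 0.39. Its single-gene interval was -0.18 to 0.96 without the block (limma adjusted p = 0.469) and 0.08 to 0.70 with it (0.105), and it passed in neither fit. The differences by spleen were 0.56, 0.04 and 0.57, again smallest in spleen 2. With the block it passed for 1 of 9 omissions of an array (without DMSO replicate 2, 0.59, adjusted p = 0.0114) and 1 of 3 omissions of a spleen (without spleen 2, 0.56, 0.0406). The other omissions failed, with adjusted p up to 0.332 and 0.429 and a difference down to 0.29. Without the block the difference ran from 0.14 (without DMSO replicate 1) to 0.60 (without DMSO replicate 2), and was 0.26 without KU-0063794 replicate 3. Set directly against rapamycin at these doses, KU-0063794 cultures had Ccr7 lower by spleen differences of -0.58, -0.44 and -0.59. The log2 difference was -0.54, with an interval of -1.10 to 0.03 without the block (limma adjusted p = 0.933) and -0.84 to -0.23 with it (0.338). The inhibitors' effects on Ccr7 were therefore not shown to differ over all tested genes in either fit.

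The egress receptor gene S1pr1 also had 1 probe set (1423571_at), and it stayed below background on all 9 arrays. Its log2 signal was 0.88, 1.30 and 0.88 with DMSO, 0.72, 1.08 and 0.88 with rapamycin, and 0.75, 0.88 and 0.94 with KU-0063794. The groups overlapped, and the array of highest signal was a DMSO array. The means, 1.02 ± 0.24, 0.90 ± 0.18 and 0.86 ± 0.10 (SD, n = 3), were therefore all at a level where other tissues' genes also lie. The differences from DMSO were -0.13 for rapamycin (limma adjusted p = 0.695) and -0.16 for KU-0063794 (0.595), and no change in S1pr1 was detectable at this signal. The exact value 0.88 recurs on 4 of the 9 arrays to the digits printed, as low signals in this table often repeat.

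Il7r encodes the interleukin 7 receptor alpha chain, which supplies survival signals to naive and memory T cells. Its stronger probe set (1448575_at) gave 7.67, 7.53 and 7.38 with DMSO, 7.26, 7.54 and 7.24 with rapamycin, and 7.37, 7.68 and 7.34 with KU-0063794. The 3 groups overlapped, and the means were 7.53 ± 0.14, 7.35 ± 0.17 and 7.46 ± 0.19 (SD, n = 3). The signal lay far above background on every array. For rapamycin the difference was -0.18 (interval -0.47 to 0.11, limma adjusted p = 0.525, or 0.291 with the block). For KU-0063794 it was -0.06 (interval -0.35 to 0.22, adjusted p = 0.855, or 0.742 with the block). These intervals exclude a halving or doubling of Il7r signal at these doses and times. A second probe set (1448576_at) ran from 5.27 to 5.64 with DMSO, 5.28 to 5.34 with rapamycin and 5.20 to 5.40 with KU-0063794. Its differences were -0.15 and -0.17, neither of which passed (limma adjusted p = 0.552 and 0.492 over all probe sets).

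Cd44 had 4 probe sets, of which 3 were above background on all 9 arrays. The strongest (1423760_at) gave 7.27, 7.20 and 6.94 with DMSO, 7.37, 6.98 and 6.79 with rapamycin, and 6.86, 6.76 and 6.50 with KU-0063794. Every KU-0063794 array was below every DMSO array, although by little (6.86 against 6.94), while the rapamycin arrays overlapped both groups. The means were 7.14 ± 0.17, 7.05 ± 0.29 and 6.71 ± 0.19 (SD, n = 3). Within spleens, KU-0063794 differed from DMSO by -0.41, -0.45 and -0.44, a narrower spread than that between spleens of one group.

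The Cd44 difference for KU-0063794 was -0.43 (SE 0.16, interval -0.79 to -0.07, limma adjusted p = 0.185) without the block. With the spleen as a fixed block the SE was 0.08 and the adjusted p 0.0142, and with the spleen as a random block the adjusted p was 0.0542. The fixed-block call held under the 9 settings that kept every array. It was lost with DMSO replicate 2 (adjusted p = 0.0543), DMSO replicate 3 (0.0585), KU-0063794 replicate 1 (0.0764) or KU-0063794 replicate 3 (0.0584) left out. It was also lost with any 1 spleen left out, at adjusted p of 0.0820 to 0.124, while the difference itself stayed between -0.49 and -0.40 under these omissions. For rapamycin the Cd44 difference was -0.09 (interval -0.45 to 0.27, adjusted p = 0.824, or 0.536 with the block).

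The other probe sets of Cd44 measure the same RNA and are no added replicates. The probe set 1434376_at gave 7.20, 6.98 and 6.64 with DMSO, 7.24, 7.14 and 6.49 with rapamycin, and 6.77, 6.81 and 6.18 with KU-0063794. Its KU-0063794 difference was -0.35, with overlapping groups (limma adjusted p over probe sets 0.530, or 0.0442 with the block). The probe set 1452483_a_at gave 5.05, 4.50 and 4.49 with DMSO, 5.16, 4.50 and 4.50 with rapamycin, and 4.34, 4.29 and 4.13 with KU-0063794. Here every KU-0063794 array was below every array of both other groups, and the difference from DMSO was -0.43 (adjusted p = 0.336, or 0.0629 with the block). Of the 12 tested probe sets of the 6 genes, 0 passed without the block for either inhibitor, against 3.04% of 22947 probe sets for rapamycin and 2.7% for KU-0063794. With the block, 2 of 12 passed for KU-0063794, both of Cd44, against 9.13% of all probe sets, and 1 of 12 for rapamycin, that of Ccr7, against 8.75%. The fourth Cd44 probe set (1443265_at) lay between -0.13 and 0.22 and did not pass the filter.

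Between the inhibitors, all 3 expressed Cd44 probe sets were lower with KU-0063794 than with rapamycin in every spleen. For 1423760_at the spleen differences were -0.50, -0.22 and -0.30, and the mean difference was -0.34. Its interval was -0.70 to 0.02 without the block (limma adjusted p = 0.933) and -0.53 to -0.15 with it (0.333). The difference between the inhibitors in Cd44 thus failed the test in both fits, and of the 9 blocked settings that kept every array it passed in 1, with a mean-variance trend (adjusted p = 0.0294). It passed with 0 of 9 arrays and 0 of 3 spleens left out in either fit, and without rapamycin replicate 1 the unblocked difference was -0.18.

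**Figure D2:**
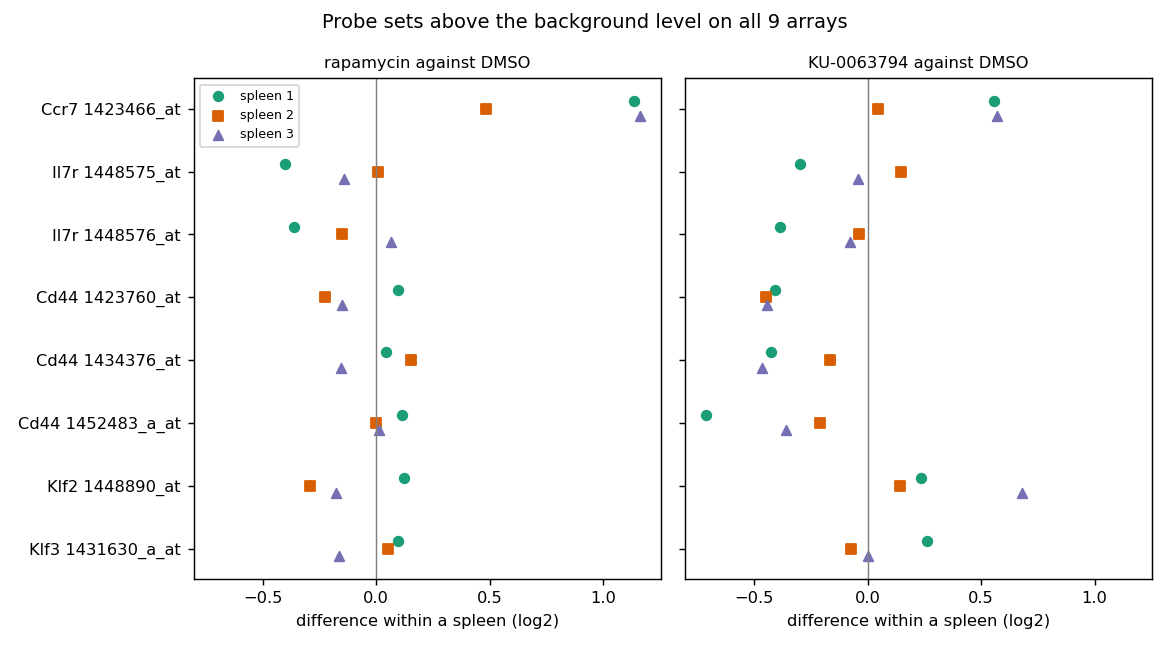
Difference from the DMSO array of the same spleen (log2, horizontal axis) for the 8 probe sets above background on all 9 arrays, with rapamycin on the left and KU-0063794 on the right. Each point is 1 spleen. All Ccr7 points lie right of 0, at 0.49 to 1.16 for rapamycin, and all points of the 3 Cd44 probe sets lie left of 0 for KU-0063794.

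Klf2, the transcription factor of quiescence and lymphocyte traffic, had 1 probe set (1448890_at) that was above background on all 9 arrays, though close to it. Its log2 signal was 1.84, 1.69 and 1.69 with DMSO, 1.96, 1.40 and 1.52 with rapamycin, and 2.07, 1.84 and 2.37 with KU-0063794. The groups overlapped, with the highest arrays under KU-0063794 and the lowest under rapamycin. The means were 1.74 ± 0.08, 1.63 ± 0.29 and 2.09 ± 0.27 (SD, n = 3). Only 7 of the 9 values were distinct. DMSO replicates 2 and 3 had exactly the same value, so the small DMSO SD is no sure measure of spread.

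Rapamycin cultures differed from DMSO in Klf2 by -0.12 (interval -0.49 to 0.26, limma adjusted p = 0.781, or 0.665 with the block). KU-0063794 cultures differed by 0.35, with an interval of -0.02 to 0.73 without the block (adjusted p = 0.299) and 0.03 to 0.67 with it (0.152). These intervals are for a single gene, and Klf2 passed in neither fit. The signal was higher than with DMSO in 3 of 3 spleens, by 0.23, 0.14 and 0.68. The largest of these came from spleen 3. Against rapamycin, the KU-0063794 difference was 0.47 (interval 0.09 to 0.84), positive in 3 of 3 spleens at 0.11, 0.43 and 0.86. That interval is for a single gene: over all 13278 genes the adjusted p was 0.933, or 0.364 with the block, so a Klf2 difference between the inhibitors was not established. Without spleen 3 the difference was 0.27 from rapamycin and 0.19 from DMSO, and without KU-0063794 replicate 3 the difference from DMSO was 0.21. Over all omissions in the fit without the block these differences ran up to 0.64 and 0.48.

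MEF2 factors, activated by the kinase ERK5, are known regulators of Klf2, and the RefSeq promoter sequence of Klf2 (GRCm38.p6, chr8:72318812-72319061, plus strand) is shown for that reason. It covers the 250 bases before the gene's start, and capitals mark the match to the MEF2 consensus, which begins 118 bases before the start.
Klf2 promoter: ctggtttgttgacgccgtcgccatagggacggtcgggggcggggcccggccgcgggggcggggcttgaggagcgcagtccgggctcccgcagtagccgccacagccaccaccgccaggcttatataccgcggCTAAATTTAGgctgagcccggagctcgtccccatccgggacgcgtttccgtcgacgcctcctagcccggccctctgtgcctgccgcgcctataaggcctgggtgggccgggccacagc
The consensus was found on either strand in 2.89% of 32544 mouse promoter windows of 250 bases. Windows of this length were in the table for 4 of the 6 genes: Klf2, Klf3, Il7r and Cd44. Each was searched on both strands for the FOXO motif TGTTTAC (in 3.17% of all windows), the KLF motif CCACNCCC (15.9%), the ETS motif CAGGAAGT (2.70%) and the MEF2 consensus, and no matches overlapped. The other match was the ETS motif in the Il7r window, where the ETS factor GABP is known to act, 49 bases before the start. It is shown in capitals, on the minus strand (GRCm38.p6, chr15:9529907-9529936), where the letters read as the reverse complement of the motif.
Il7r promoter stretch: cttttgctcagACTTCCTGtttctggcact
The Klf3 and Cd44 windows held no match. The windows differed in base composition, with GC contents of 71.2% for Klf2, 78.4% for Klf3, 56.4% for Cd44 and 44.0% for Il7r. A match describes letters in a sequence; no binding was measured.

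Klf3, a KLF family repressor, had 7 probe sets. The strongest (1431630_a_at) was above background on all 9 arrays, at 1.67, 1.84 and 1.84 with DMSO, 1.77, 1.89 and 1.67 with rapamycin, and 1.93, 1.76 and 1.84 with KU-0063794. The groups overlapped throughout, and the means were 1.78 ± 0.10, 1.77 ± 0.11 and 1.84 ± 0.08 (SD, n = 3). Exact repeats occurred here too, with 7 distinct values on the 9 arrays. The difference was -0.01 for rapamycin (limma adjusted p = 0.986) and 0.06 for KU-0063794 (0.788). The other 6 probe sets lay below background on every array, between -0.15 and 1.01, and 3 of them did not pass the filter. The direction of the Klf3 difference turned when all 7 were averaged, to 0.03 for rapamycin and -0.01 for KU-0063794.

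**Figure D3:**
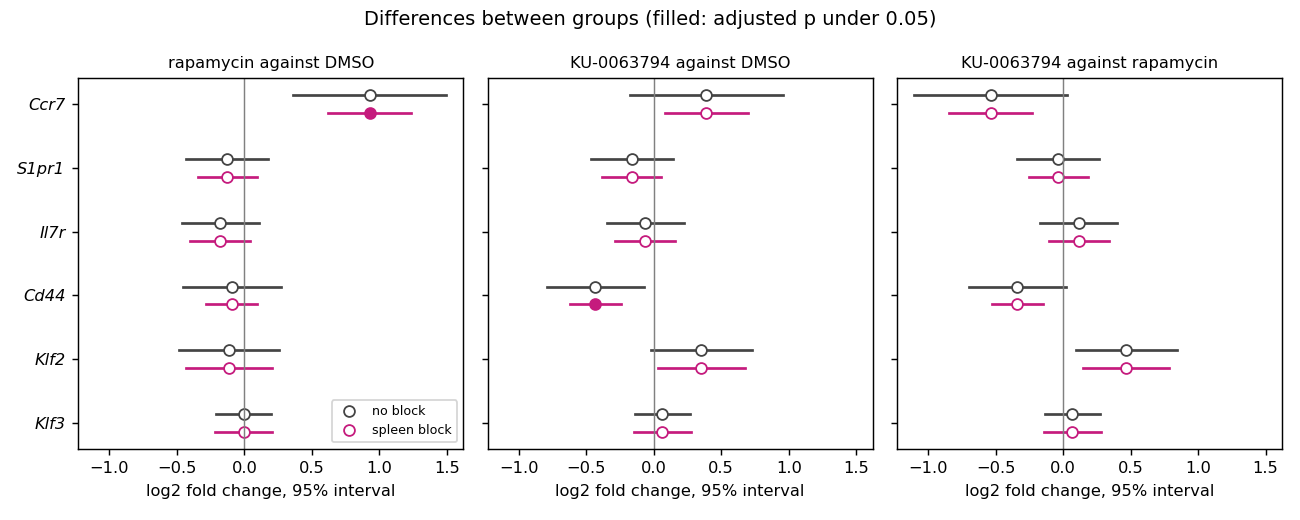
Log2 fold change with its 95% interval (horizontal axis) for the 6 genes in the 3 comparisons, from the fit without a block (grey) and with the spleen block (magenta). Filled points passed the test. Only Ccr7 for rapamycin (0.93) and Cd44 for KU-0063794 (-0.43) are filled, both with the block alone.

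Between KU-0063794 and rapamycin, 0 of the 6 genes passed in either fit, and 0% of all tested genes did. By limma without the block, 629 of 13278 genes had an unadjusted p under 0.05, and the lowest adjusted p was 0.854. The corresponding values with the block were 1329 genes and 0.0587. A shortage of calls in this comparison was therefore general and not particular to these genes.

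Genes of the surrounding pathways were grouped in lists, which were drawn up with results of these data known, and each is given by its counts. Of all tested genes, 2.65% rose and 1.79% fell for rapamycin without the block, and 6.24% and 5.52% with it. For KU-0063794 the shares were 2.28% and 1.78% without the block, and 6.52% and 5.86% with it. The median difference of all genes was -0.00 for rapamycin and 0.01 for KU-0063794. Of 12 tested KLF family genes other than Klf2 and Klf3, 0 passed in either fit for either inhibitor, and their median differences were 0.07 and 0.03. Of 13 regulators and partners of KLF2 and KLF3, 0 passed for rapamycin without the block, and 2 rose and 1 fell with it. For KU-0063794, 1 rose without the block and 2 with it. The median differences of this list were -0.10 and -0.05.

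Mef2a and Mef2d, which encode the MEF2 factors downstream of ERK5, were the members of that list that rose. Mef2a gave 5.19, 5.38 and 5.30 with DMSO, 5.68, 5.84 and 5.67 with rapamycin, and 5.68, 5.98 and 5.65 with KU-0063794. Each inhibitor group lay entirely above DMSO, and all 6 Mef2a probe sets shared the sign. The log2 difference was 0.44 for rapamycin (limma adjusted p = 0.0522, or 0.0099 with the block) and 0.48 for KU-0063794 (0.0397, or 0.0070 with the block). Without the block the KU-0063794 call was lost with any 1 of the 9 arrays left out (adjusted p up to 0.144), and with the block it held for all 9, whereas the rapamycin call with the block was lost without rapamycin replicate 1 (0.0552). Mef2d differed by 0.45 and 0.46, higher in 3 of 3 spleens with overlapping groups, and passed with the block alone (adjusted p = 0.0058 and 0.0057). Foxo1, the FOXO factor upstream of Klf2 and Il7r, had means of 4.14 ± 0.40 (SD, n = 3) for DMSO, 3.99 ± 0.21 for rapamycin and 3.78 ± 0.15 for KU-0063794. Its differences of -0.15 and -0.36 did not pass (adjusted p = 0.751 and 0.360 without the block, 0.423 and 0.0626 with it). Of its 4 probe sets, 3 shared the sign for rapamycin and 2 for KU-0063794. The Foxo1 transcript says nothing of where the protein lies in the cell. DMSO replicate 1, at 4.61, was the highest array, and without it the unblocked differences were 0.08 and -0.13. Foxo3 fell with rapamycin with the block alone (-0.29, adjusted p = 0.0403), and that call was lost with any 1 array left out.

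Lymph node entry genes (integrins, their activators, and signal transducers of CCR7) numbered 18 tested. For rapamycin 0 passed without the block and 2 fell with it, and for KU-0063794 1 fell without the block, while 1 rose and 3 fell with it. The median differences were -0.01 and -0.14. Itgb2, the beta chain of the integrin LFA-1, fell with the block, by 0.35 with rapamycin (limma adjusted p = 0.0493) and by 0.38 with KU-0063794 (0.0367). Rap1b, a small GTPase that activates integrins, also fell with the block, by 0.32 and 0.33 (adjusted p = 0.0236 and 0.0205). These calls were thin: with the block, Itgb2 passed for 1 and 2, and Rap1b for 4 and 5, of the 9 omissions of an array. Arrb1, encoding beta-arrestin 1, fell with KU-0063794 from 2.59 ± 0.57 to 1.12 ± 0.42 (SD, n = 3), a level below background on 2 of 3 arrays. The difference was -1.48 (adjusted p = 0.0234, or 0.0076 with the block). In the fit without it, the call was lost with DMSO replicate 1, KU-0063794 replicate 2 or KU-0063794 replicate 3 left out (adjusted p up to 0.0850). Rassf5 of this list rose with KU-0063794 by 0.29 with the block alone (limma adjusted p = 0.0393, or 0.281 without it), with its 2 probe sets of one sign. Ccl19 and Ccl21a were not analysed here.

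Of 13 tested genes of the sphingosine-1-phosphate pathway and tissue egress, 0 passed for rapamycin without the block and 2 fell with it, and 1 fell for KU-0063794 in either fit. The median differences were -0.01 and -0.05. Cd69 encodes a surface protein that binds S1PR1 and removes it from the membrane, and it also reports recent activation. It gave 5.06, 4.21 and 4.52 with DMSO, 4.49, 3.86 and 3.84 with rapamycin, and 3.77, 3.42 and 3.43 with KU-0063794. Within each spleen DMSO was highest and KU-0063794 lowest, and the KU-0063794 arrays lay below all others. The difference was -0.54 for rapamycin (limma adjusted p = 0.273, or 0.0166 with the block) and -1.06 for KU-0063794 (0.0394, or 0.0017 with the block). With the block, the KU-0063794 call held with each array left out (adjusted p up to 0.0141) and the rapamycin call in 4 of 9 such fits (up to 0.0844). Without the block, the KU-0063794 call held in 2 of 9 (up to 0.132). KU-0063794 and rapamycin were not shown to differ in Cd69 (-0.52, adjusted p = 0.933, or 0.296 with the block). S1pr4, another receptor of this family, differed by -0.38 for rapamycin, lower in 3 of 3 spleens, and passed with the block alone (adjusted p = 0.0272, with the call held in 3 of 9 omissions of an array). For KU-0063794 it differed by -0.21 (0.485, or 0.169 with the block). S1pr3, like S1pr1, stayed below background in every group.

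Genes that direct T cells into inflamed or peripheral tissue gave calls in both directions. Of 10 tested, 1 fell in each comparison with DMSO without the block, and with it 3 rose and 2 fell in each; the median differences were 0.00 and -0.04. Cxcr3, a receptor for interferon-induced chemokines, gave 2.52, 4.61 and 4.12 with DMSO, 4.69, 5.70 and 5.10 with rapamycin, and 5.16, 5.77 and 5.32 with KU-0063794. Every inhibitor array was above every DMSO array, and DMSO replicate 1 stood far below the other two. The difference was 1.41 for rapamycin (limma adjusted p = 0.145, or 0.0154 with the block) and 1.66 for KU-0063794 (0.0927, or 0.0081 with the block). Without the block and without DMSO replicate 1 the differences were 0.80 and 1.05. With the block, the rapamycin call was lost with rapamycin replicate 1, 2 or 3 left out (adjusted p up to 0.0831). Itgav, the integrin alpha V chain, fell in both fits, by 0.69 with rapamycin (adjusted p = 0.0184) and by 0.88 with KU-0063794 (0.0114), although 1 of its 3 tested probe sets had the opposite sign for KU-0063794. Its rapamycin call without the block was lost with DMSO replicate 1, rapamycin replicate 1 or rapamycin replicate 3 left out (adjusted p up to 0.0736). Over all alternative settings the Itgav differences shrank to as little as -0.19 for rapamycin and -0.27 for KU-0063794. Cxcr4, Itgae and Cxcr6 passed with the block alone. Cxcr4 rose by 0.78 and 0.81, from a DMSO level above background on 1 of 3 arrays, and Itgae, a chain that holds cells in epithelium, rose by 0.79 and 0.67. Cxcr6 fell by 0.30 and 0.41. In the order rapamycin and KU-0063794, the calls with the block held in 5 and 4 of 9 omissions of an array for Cxcr4, 7 and 4 for Itgae, and 3 and 9 for Cxcr6. With the block and without spleen 3, the Cxcr4 difference for KU-0063794 was 0.54 and the Itgae difference for rapamycin was 0.52.

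**Figure D4:**
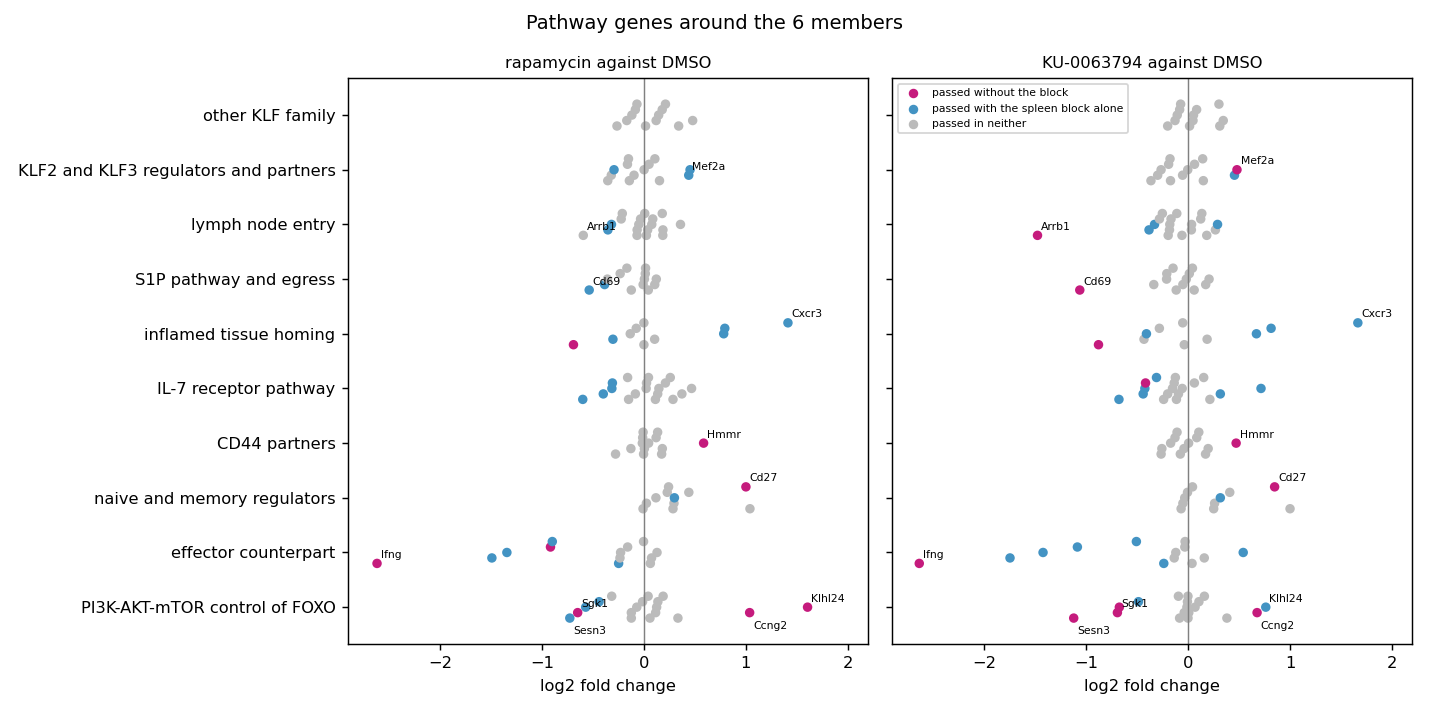
Log2 fold change from DMSO (horizontal axis) of each tested gene in 10 pathway lists, for rapamycin (left) and KU-0063794 (right). Each point is 1 gene, magenta where it passed without the block, blue where it passed with the spleen block alone and grey where it passed in neither; vertical offsets within a list separate the points. No gene of the other KLF family is coloured, and Ifng at -2.62 and -2.63 lies farthest to the left.

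For the interleukin 7 receptor pathway, 18 genes were tested. Rapamycin gave 0 calls without the block and 4 lower with it, and KU-0063794 gave 1 lower without the block, and 2 higher and 5 lower with it. The median differences were 0.04 and -0.13. Pik3r1, a regulatory subunit of PI3K, fell with the block by 0.60 and 0.68 (limma adjusted p = 0.0057 and 0.0037), with all 4 probe sets of one sign. Il2rb, the beta chain of the interleukin 2 receptor, fell with the block by 0.40 and 0.44 (adjusted p = 0.0108 and 0.0073). Its rapamycin call was lost without rapamycin replicate 1 (0.0582). Without the block, Pik3r1 and Il2rb failed for rapamycin (adjusted p = 0.198 and 0.370) and for KU-0063794 (0.140 and 0.304). The gene that fell with KU-0063794 without the block is not named here. Bcl2l11, which encodes the death protein BIM that interleukin 7 restrains, rose with KU-0063794 with the block (0.72, adjusted p = 0.0080) but not without it (0.391), and 4 of its 5 probe sets shared the sign. Bcl2, of the same list, also rose with KU-0063794 with the block (0.32, adjusted p = 0.0469) but not without it (0.145), again with 4 of 5 probe sets of one sign. Il2rg was not analysed here.

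Of 13 tested partners of CD44 (hyaluronan enzymes, ligands and linkers), 1 rose for each inhibitor in both fits, and the median differences were 0.01 and -0.04. That gene was Hmmr, a hyaluronan receptor that also works at the mitotic spindle. It rose by 0.59 with rapamycin (limma adjusted p = 0.0177, or 0.0072 with the block) and by 0.47 with KU-0063794 (0.0407, or 0.0146 with the block), and all 5 probe sets shared the sign. Over all alternative settings, though, the Hmmr differences went down to 0.09 and 0.16. Without the block the KU-0063794 call was lost with any 1 array left out (adjusted p up to 0.137). The rapamycin call was lost without DMSO replicate 1, rapamycin replicate 1 or rapamycin replicate 3 (up to 0.0696). Hmmr and Cd44 thus differed from DMSO in opposite directions with KU-0063794.

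Naive and memory regulators had the highest median differences of the 10 lists, 0.29 for rapamycin and 0.25 for KU-0063794, yet of 11 tested genes 1 rose without the block and 2 with it in each comparison. Cd27, a costimulatory receptor kept by naive and memory cells, gave 2.01, 1.81 and 1.84 with DMSO, 3.33, 2.59 and 2.75 with rapamycin, and 3.06, 2.61 and 2.54 with KU-0063794. The inhibitor arrays all lay above the DMSO arrays. It rose by 1.00 with rapamycin (limma adjusted p = 0.0244, or 0.0028 with the block) and by 0.85 with KU-0063794 (0.0453, or 0.0039 with the block). These calls held for every omission of an array with the block, and for 4 and 2 of 9 without it (adjusted p up to 0.0733 and 0.140). Of 13 effector genes, 2 fell for rapamycin and 1 for KU-0063794 without the block; with it 6 fell for each and 1 rose for KU-0063794. Ifng, the interferon gamma gene, fell by 2.62 with rapamycin and fell by 2.63 with KU-0063794, in both fits (limma adjusted p = 0.0105 and 0.0114 without the block). The effector list's median differences were -0.23 and -0.14. Tcf7 was not analysed here.

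Of 18 genes of PI3K, AKT, mTOR and FOXO control, 2 rose and 1 fell for rapamycin without the block, and 2 rose and 4 fell with it. For KU-0063794, 1 rose and 3 fell without the block, and 2 rose and 4 fell with it; the median differences were 0.01 and -0.00. The genes named next were the 2 highest and 2 lowest called in this list, a rule that by itself picks both directions. Ccng2, an atypical cyclin, rose by 1.04 (limma adjusted p = 0.0065) and 0.68 (0.0234), and Klhl24 rose by 1.60 with rapamycin (0.0116) and, with the block alone, by 0.76 with KU-0063794 (0.0371). The Klhl24 signals with DMSO (1.23, 1.44 and 1.52) lay at the background level and above it on 2 of 3 arrays, so these differences start from a level near background. Over all alternative settings the Klhl24 differences shrank to as little as 0.44 for rapamycin and 0.24 for KU-0063794. Sesn3, a sestrin that restrains mTOR complex 1, fell by 1.12 with KU-0063794 (0.0286) and, with the block alone, by 0.73 with rapamycin (0.0118). Sgk1, a kinase that depends on mTOR complex 2 for its activity, fell by 0.65 (0.0322) and 0.69 (0.0275). Without the block, the rapamycin calls of Ccng2 and Klhl24 held with each array left out (adjusted p up to 0.0278 and 0.0463). The others held in 3 of 9 (Ccng2 and KU-0063794), 4 of 9 (Sesn3 and KU-0063794), and 3 and 4 of 9 (Sgk1) such fits. With the block, the Sesn3 call for rapamycin held in 5 of 9 and the Klhl24 call for KU-0063794 in 2 of 9. Omissions of arrays were not read for Bcl2 and Rassf5. Over the other pathway genes named here, leaving out a single array or spleen in the fit without the block moved the difference by over 1.5 times for 11 that had been called with the block alone: Bcl2l11, Cd69 (for rapamycin), Cxcr3, Cxcr4, Cxcr6, Il2rb, Itgae, Itgb2, Mef2d, Pik3r1 and S1pr4.

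Some RNA control signals and summed marker signals moved with the groups. For the actin control, the signal at the 3′ end exceeded that at the 5′ end by 0.49 to 0.65 in DMSO cultures, 0.62 to 0.72 under rapamycin and 0.65 to 0.70 under KU-0063794, more with either inhibitor than with DMSO in each of the 3 spleens. The Gapdh control went the other way, with less excess under either inhibitor than under DMSO in each of the 3 spleens. Its 3′ minus 5′ difference was -0.21 to 0.04 with DMSO, -0.25 to -0.03 with rapamycin and -0.22 to -0.03 with KU-0063794. The 18S 5′ control moved with the spleen, at 8.66 to 9.16 in spleen 2, 8.13 to 8.76 in spleen 1 and 6.81 to 7.72 in spleen 3, and within each spleen the DMSO array was the highest. The B1 repeat control separated DMSO (7.96 to 8.65) from rapamycin (6.75 to 7.52) and KU-0063794 (7.09 to 7.75). The summed linear signal of the 5 CD4 T cell markers was 70.2 to 96.3 with DMSO, 80.3 to 92.2 with rapamycin and 105 to 123 with KU-0063794, with Zbtb7b and Ctla4 above background. Ctla4 had mean log2 signals of 6.13, 6.31 and 6.72 in these groups, whereas Cd4 was below background in each. The sum of the 4 NK cell markers, carried by Gzma and Eomes, was 1859 to 3098, 1633 to 2111 and 1614 to 1686. Gzma had mean log2 signals of 11.22, 10.81 and 10.65, whereas Ncr1 and Klra8 were below background. The sum of the 11 CD8 T cell markers was 2447 to 2637, 2554 to 2714 and 2700 to 2764. The ranges for B cells were 10.7 to 13.3, 9.04 to 13.0 and 10.2 to 11.7, and those for myeloid cells were 16.2 to 17.4, 15.3 to 16.4 and 15.9 to 17.6. Their part in the Ccr7 and Cd44 results was not tested.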

How the data were processed

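The authors deposited 1 log2 signal for each probe set and array, made with Affymetrix Expression Console 1.3.1, per the submitters' processing notes. The summarisation and normalization method and the genome build are not given in the sources used here. Array medians of 0.47 to 0.53 show values on a shared scale, and they were used as deposited. Depth has no counterpart on arrays; 3 arrays per group limit the precision. Of 45101 probe sets, 64 were controls, 932 carried several symbols and 9160 were not listed, and these were left out. A gene was represented by its probe set of highest mean, and tested where that mean was above the 40th percentile (0.31), which left 13278 genes. A second fit covered 22947 probe sets. Two-sided moderated tests of 3 groups over 9 arrays used limma 3.58.1 (lmFit, eBayes) in R 4.3.3 with Benjamini-Hochberg adjustment over all features; the code was tested on simulated data. The main fit had no block. The design states that control and treated cells came from the same spleens, and deviations from group means in arrays of one number went together (r across genes 0.345 to 0.533 in 9 pairs). Blocked values therefore stand beside those results whose call they change. In 18 pairs of different numbers r was -0.414 to -0.0791. Centring on group means makes these negative on average where the others are positive, so they are no separate evidence of pairing. Pathway genes were named as the 2 highest and 2 lowest called per list, plus Foxo1, S1pr4, Cd69 and Cxcr3. S1pr2 and S1pr3 were added after their values were seen. The text prints part of these. Genes and lists were chosen with earlier results of these data known. Alternatives covered fixed and random blocks, normalization, filters, probe set choice, trend, weights and omissions of arrays and spleens. Promoters are RefSeq's.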

Additional observations from a re-analysis of the deposited data

How the results depend on the processing

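Without a block, 590 genes passed for rapamycin and 540 for KU-0063794. The counts were 1561 and 1644 with the spleen as a fixed replicate block, 1245 and 1291 with a random block, 98 and 111 with only the 2 groups compared, and 0 to 514 and 0 to 548 with an array or spleen left out. The count among the 6 genes went from 0 to 1 with the fixed block in both comparisons, with the random block for rapamycin, and under all 8 combinations of the block with another setting. The block with trend also gave 1 between the inhibitors, and with arrays or spleens left out the counts ranged from 0 to 1. Among probe sets of the 6 genes the count went to 1 for rapamycin (either block) and to 2 for KU-0063794 (fixed block). The combinations of the block with another choice, and all alternatives for pathway genes, were added after seeing the data. Small differences turned in sign. For Klf3 and rapamycin the value was 0.0081 with median centring and 0.030 with all probe sets averaged, and ran from -0.062 to 0.074 over omissions of an array or spleen. For Klf3 and KU-0063794 it was -0.0090 with all averaged and -0.037 to 0.13 over omissions, and between the inhibitors -0.039 with all averaged. For Cd44 and rapamycin it was 0.045 with all averaged (with or without the block), 0.014 with the most variable probe set and -0.25 to 0.034 over omissions. Over omissions, Il7r with KU-0063794 ran from -0.17 to 0.053, S1pr1 with rapamycin from -0.22 to 0.012 and between the inhibitors from -0.12 to 0.057, and Foxo1 with rapamycin from -0.28 to 0.082. The cause was not tested. Other directions of the 6 genes held under every alternative run. Low signals of S1pr1, Klf2 and Klf3 limit what could be seen for them.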

Other observations

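For each of the 6 genes the 3 genes of most similar pattern were taken by Pearson correlation over the 9 arrays, among 8296 genes (8297 for S1pr1) above background in a group; arrays of a group or spleen are shared by every pair, so these values are descriptions. For Ccr7 they were Gtpbp1 (r = 0.980), Twf2 (0.968) and Haspin (0.965). Those for Cd44 were Rnf113a2 (0.962), Myl12a (0.949) and Wbp2 (0.947), and those for Il7r were Armcx4 (0.907), Basp1 (0.898) and Dhx35 (0.897). Klf2 was most like Elp5 (0.921), Bckdk (0.910) and Exosc3 (0.899). Klf3 was most like Dbh (0.901), Pars2 (0.859) and Bcl9l (0.841). S1pr1, itself below background, gave Chchd6 (0.930), Lce1h (0.927) and Ap2b1 (0.911).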
